A study of Mus musculus with 2 samples.

Results

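The Mir15, Mir16, Mir195 and Mir497 family was examined in skeletal muscle of newborn mice, as 6 of the 1973 miRNA genes listed in a small RNA count table. Members were chosen by name. They are Mir15a and Mir16-1 on chromosome 14, Mir15b and Mir16-2 on chromosome 3, and Mir195a and Mir497 on chromosome 11. All 6 were present in the table, and Mir497 was read from the opposite-strand column of Mir497b, the gene listed at its place. The study holds 1 group of 2 libraries, made from total RNA of muscle from pup 1 (replicate 1) and pup 2 (replicate 2) of 1 litter of strain B6NCrl at postnatal day 0, with no treatment named and sex not collected. The labels carry the same donor entry for both pups. There was no contrast of conditions, so levels are described, and the only test compares these libraries with each other.

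MicroRNAs are short RNAs that guide Argonaute proteins to messenger RNAs, mostly through the bases called the seed near their 5′ end. Members of this family share a seed and are known for repressing genes that drive the cell cycle, D-type and E-type cyclins among them, and the survival gene Bcl2. In mouse muscle stem cells, miR-195 and miR-497 are linked to quiescence, and in mouse heart the family is linked to the end of cardiomyocyte division after birth.

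The mature sequences are shown first because they define the family and decide which reads can be given to a gene. They are from RefSeq (build GRCm38.p6), where all 6 members had a mature entry and 5 a hairpin entry. Capitals mark the seed, bases 2 to 8.
miR-15a-5p: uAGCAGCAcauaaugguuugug
miR-15b-5p: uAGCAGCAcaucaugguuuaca
miR-16-5p: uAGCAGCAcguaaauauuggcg
miR-195a-5p: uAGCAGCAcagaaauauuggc
miR-497a-5p: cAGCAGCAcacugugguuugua
miR-322-5p: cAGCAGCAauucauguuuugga
miR-503-5p: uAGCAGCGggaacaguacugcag
These are 5 distinct 5p sequences from 6 family genes, because Mir16-1 and Mir16-2 make the same one. Counted from the 5′ end without gaps, 10 of 21 positions were the same in all 5, and they included every position of the seed. Over the whole sequence, seed included, miR-16-5p and miR-195a-5p matched at 19 of 21 positions, miR-15a-5p and miR-15b-5p at 18 of 22, and miR-15a-5p and miR-497a-5p at 17 of 22. After base 8, miR-16-5p and miR-195a-5p matched at 11 of 13 positions, while miR-15a-5p matched miR-15b-5p and miR-497a-5p equally, at 10 of 14 each. miR-322-5p, from the X chromosome, carries the same seed, while miR-503-5p has a different last seed base.

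The opposite arms differ between genes and do not carry this seed. Those of the 2 Mir16 genes are shown because they tell the genes apart where the 5p does not.
miR-16-1-3p: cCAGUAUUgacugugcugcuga
miR-16-2-3p: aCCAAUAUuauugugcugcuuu
The hairpins below carry in capitals the longest stretch that both share.
Mir16-1: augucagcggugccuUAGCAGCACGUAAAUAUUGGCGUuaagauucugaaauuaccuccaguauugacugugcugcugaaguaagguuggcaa
Mir16-2: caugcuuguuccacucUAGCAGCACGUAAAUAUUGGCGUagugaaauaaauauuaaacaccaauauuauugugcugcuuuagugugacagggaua
The shared stretch is 23 bases long and holds the whole mature 5p of 22 bases. A read inside it matches both genes, and the deposited tables list reads that match several places apart from the gene counts. These made up 30.2% of reads in replicate 1 and 29.9% in replicate 2, and how many of them came from Mir16-1 or Mir16-2 cannot be told from gene counts. The values of both genes are uncertain for this reason. The hairpins of Mir15b, Mir195a and Mir497 shared at most 16 bases with any other hairpin of the table, Mir195a with Mir195b. Mir15a was the member without a hairpin entry, so what its hairpin shares with others was not examined.

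Mir497 is printed beside the listed gene on the other strand because its reads were found there.
Mir497: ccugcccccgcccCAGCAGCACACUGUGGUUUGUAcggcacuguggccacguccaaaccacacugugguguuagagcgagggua
Mir497b: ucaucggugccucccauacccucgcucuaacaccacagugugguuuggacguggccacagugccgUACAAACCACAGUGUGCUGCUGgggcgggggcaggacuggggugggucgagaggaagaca
Capitals in Mir497 mark the mature 5p, and capitals in Mir497b mark its reverse complement. All of the Mir497 hairpin lies inside Mir497b as its reverse complement. Mir497b had 0 counts on its own strand in both libraries, while its opposite-strand column held 2520 in replicate 1 and 2749 in replicate 2. Opposite-strand counts at the other 5 members were 0 in replicate 1 and at most 1 in replicate 2.

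By GENCODE M21 (mm10), each of the 3 loci holds 2 members on the same strand. Mir15a (chr14:61632027-61632110, minus strand) and Mir16-1 (chr14:61631880-61631972) are 54 bases apart in an intron of Dleu2, a long non-coding RNA gene, and 13 bases of Mir16-1 overlap an exon of a Dleu2 transcript. Mir15b (chr3:69009772-69009835, plus strand) and Mir16-2 (chr3:69009902-69009996) are 66 bases apart in an intron of Smc4, which encodes a subunit of condensin. Mir497 (chr11:70234717-70234800, plus strand) and Mir195a (chr11:70235042-70235135) lie in no other annotated gene on their strand. No further listed miRNA gene lay within 10 kb of a member.

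Own-strand counts summed to 3754895 over all gene rows in replicate 1 and to 5133949 in replicate 2, and levels are given as CPM, counts scaled to these totals. The muscle markers Mir206, Mir133b, Mir499, Mir208b and Mir486 were all detected. Together they made up 8.13% of these totals in replicate 1 and 8.93% in replicate 2, most of it Mir206 (79447 and 87198 CPM). Outside this list, counts were 24 (replicate 1) and 46 (replicate 2) for Mir1a-1, 20 and 32 for Mir133a-1, and 4 and 6 for Mir133a-2. Gene counts leave out reads that match several places, and what these genes share with others was not examined. Their low counts therefore do not give the levels of their mature miRNAs in muscle.

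The whole family held 0.492% of own-strand counts in replicate 1 (95% Clopper-Pearson interval 0.485 to 0.499) and 0.347% in replicate 2 (0.342 to 0.352), a mean of 0.420% ± 0.103 (SD, n = 2). Intervals here cover counting error only. The share over the 5 own-strand members, leaving Mir497 out, was 0.425% and 0.294%. Dleu2's Mir15a and Mir16-1 gave the largest part in both pups, 51.8% of the family's counts in replicate 1 and 48.7% in replicate 2. The Mir195a and Mir497 locus gave 29.7% and 31.7%, and the Smc4 locus 18.5% and 19.6%. The order of the 3 loci was thus the same in both libraries, as an order of gene counts. Reads inside the stretch shared by Mir16-1 and Mir16-2 are missing from the family share and from the parts of their loci. What this does to the order was not tested.

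Counts of Mir16-1 and Mir16-2 leave out reads inside their shared stretch, so the order of members below is one of gene counts. Mir15a was the highest member, with 1488 CPM (5587 counts) in replicate 1 and 1013 CPM (5200 counts) in replicate 2. Its mean of 1250 ± 336 CPM (SD, n = 2) ranked 79th of all listed genes. Its partner Mir16-1 had 1064 CPM (3997 counts) in replicate 1 and 678 CPM (3480 counts) in replicate 2, a mean of 871 ± 273 CPM. The ranges of these neighbours in the order overlapped, although Mir15a was above Mir16-1 within each library.

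Mir195a, with 789 CPM (2964 counts) in replicate 1 and 567 CPM (2910 counts) in replicate 2, averaged 678 ± 157 CPM. Mir497 had 671 CPM in replicate 1 and 535 CPM in replicate 2, a mean of 603 ± 95.9 CPM. Mir15b had 627 CPM (2355 counts) in replicate 1 and 514 CPM (2638 counts) in replicate 2, a mean of 571 ± 80.1 CPM. These 3 members could not be ordered beyond their spread, since the range of each overlapped that of the next.

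Mir16-2 was the lowest member by gene counts. It had 283 CPM (1062 counts) in replicate 1 and 166 CPM (852 counts) in replicate 2, a mean of 224 ± 82.6 CPM and rank 147. Its range lay below that of Mir15b, the only pair of neighbours in the order whose ranges did not overlap. The order from Mir15a down to Mir16-2 was the same in each library. Divided by the length of the listed gene, an alternative added after seeing the data, Mir15b (64 bases) moved to place 3 with 891 CPM per 100 bases and Mir195a (94 bases) to place 4 with 721, while Mir15a stayed first at 1489 and Mir16-2 last at 236. A small RNA read usually covers a whole mature miRNA, so CPM undivided by length was kept as the main scale. The median level of the members was 641 CPM, against 84.8 CPM over the 374 genes with at least 10 counts in total.

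**Figure D1:**
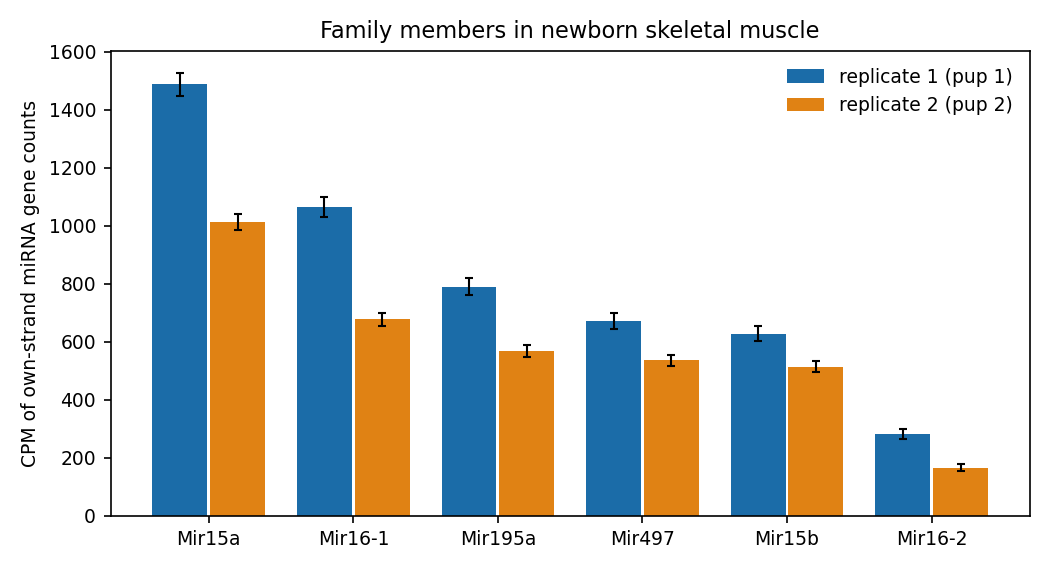
Level of each family member in CPM of own-strand counts (vertical axis, from 0), with replicate 1 left of replicate 2 and bars marking exact Poisson 95% intervals, which cover counting error only. All 6 members were higher in replicate 1, from 1488 against 1013 CPM for Mir15a to 283 against 166 CPM for Mir16-2.

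Within a locus the partners are made from neighbouring hairpins, so their ratio shows how evenly the pair was counted. Mir15a had 1.40 times the counts of Mir16-1 in replicate 1 (95% interval 1.34 to 1.46) and 1.49 times in replicate 2 (1.43 to 1.56), and these intervals overlap. The mean log2 ratio was 0.53 ± 0.068 (SD, n = 2). At the Smc4 locus Mir15b had 2.22 times the counts of Mir16-2 in replicate 1 (2.06 to 2.39) and 3.10 times in replicate 2 (2.87 to 3.35), a mean log2 ratio of 1.39 ± 0.34. Here the counting intervals of the pups were apart. At the chromosome 11 locus Mir195a and Mir497 were nearly even, with 1.18 times the counts in Mir195a in replicate 1 (1.11 to 1.24) and 1.06 times in replicate 2 (1.00 to 1.12), a mean log2 ratio of 0.16 ± 0.11. At both loci with a Mir16 gene, that gene had the lower count, and the part in this of 5p reads that match both Mir16 genes was not tested.

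**Figure D2:**
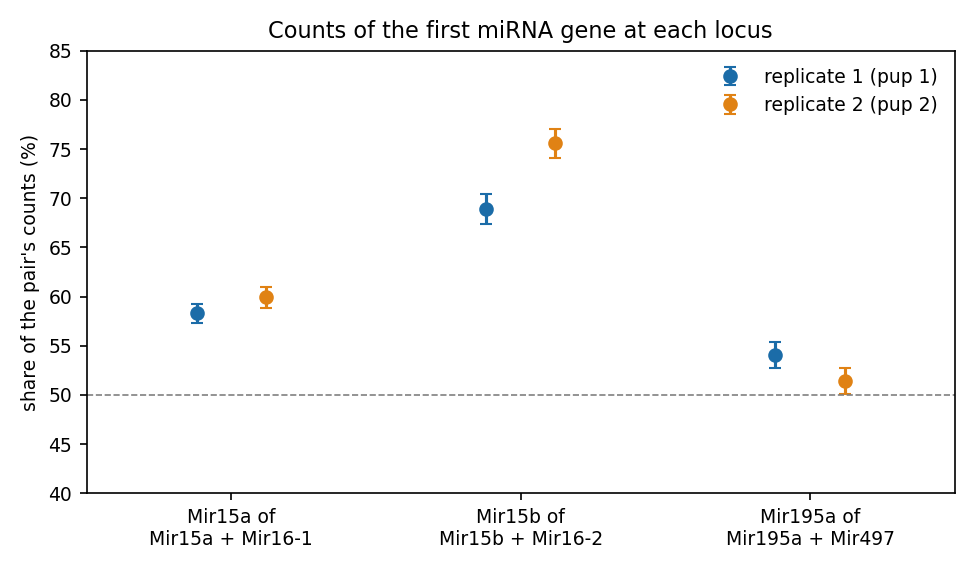
Share of a pair's counts held by its first gene (vertical axis, percent), for Mir15a with Mir16-1, Mir15b with Mir16-2 and Mir195a with Mir497, replicate 1 left of replicate 2, with exact 95% binomial intervals. The shares were 58.3% and 59.9% at the first locus, 68.9% and 75.6% at the next, and 54.0% and 51.4% at the last.

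Other genes with the same seed were found by searching bases 2 to 8 of every mature miRNA in the table. Outside the family there were 5, Mir322 and Mir195b, Mir6342, Mir6353 and Mir6419. The last 4 had 0 counts in both libraries, which allows up to 3 counts, or 0.799 CPM in replicate 1 and 0.584 CPM in replicate 2. Mir322, linked to cell cycle exit in mouse myoblasts, had 30431 CPM in replicate 1 and 27925 CPM in replicate 2. The family thus held 13.9% of the counts of all genes with the seed in replicate 1 and 11.1% in replicate 2. Mir322 alone had 6.18 and 8.04 times the counts of the 6 members together. Reads that match both Mir16 genes are not in the family's counts, and gene counts do not separate the arm with the seed from the other. These values therefore compare gene counts, not amounts of mature miRNA with the seed. Mir503, beside Mir322, had 1832 and 1491 CPM, above Mir15a in each library.

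**Figure D3:**
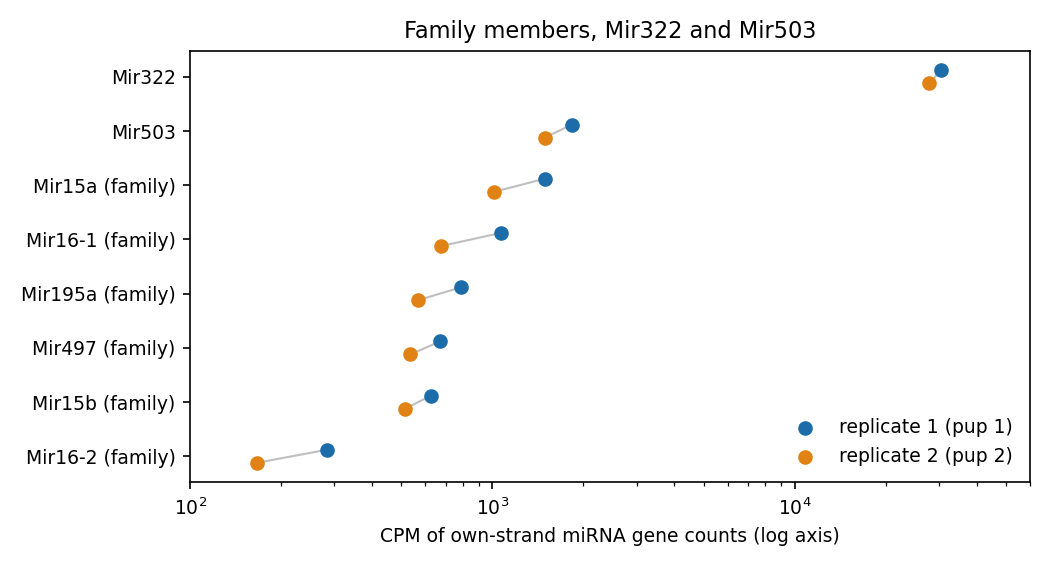
Level of the 6 family members, Mir322 and Mir503 in CPM (horizontal log axis), with replicate 1 drawn above replicate 2 for each gene and a grey line joining them. Mir322, at 30431 and 27925 CPM, lies far to the right of the family, whose highest member Mir15a had 1488 and 1013 CPM. Reads that match both Mir16 genes are not in these counts.

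The libraries of the pups were compared by an exact two-sided binomial test on counts, with library sizes scaled by edgeR's TMM and Benjamini-Hochberg adjustment over the 374 genes tested. It compares these libraries beyond counting error, not conditions. All 6 members passed the count minimum. At an adjusted p under 0.05, all 6 were higher in replicate 1 than in replicate 2. Of all genes tested, 23.5% passed that threshold in the same direction and 25.7% in the opposite direction. None of the 6 differed by 2-fold, a size at which 5.08% of genes tested were called in either direction. The median log2 ratio, replicate 1 over replicate 2, was 0.38 over the members and -0.0044 over all genes tested.

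The 2 Mir16 genes had the highest ratios of the family, from counts that leave out reads inside their shared stretch. Mir16-2 had a log2 ratio of 0.64 (95% counting interval 0.51 to 0.77, adjusted p = 3.14e-21, binomial test over all genes), which is 1.55-fold and above 88.8% of genes tested. Mir16-1 had 0.52 (0.45 to 0.58, adjusted p = 2.07e-53), or 1.43-fold. Mir15a followed with 0.42 (0.37 to 0.48, adjusted p = 3.21e-51) and Mir195a with 0.35 (0.27 to 0.42, adjusted p = 2.42e-19). Mir497, at 0.19 (0.11 to 0.27, adjusted p = 3.81e-06), and Mir15b, at 0.16 (0.074 to 0.24, adjusted p = 0.00042), were closest to even.

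Mir322 was close to even on the TMM scale. Its log2 ratio was -0.0086 (-0.020 to 0.0027, adjusted p = 0.223, binomial test), and its counting interval lay below those of all 6 members. Without TMM its CPM were 1.09 times higher in replicate 1, so its direction depends on the scaling. Mir503 had a log2 ratio of 0.16 (0.12 to 0.21, adjusted p = 2.49e-11), within the range of Mir15b and Mir497.

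**Figure D4:**
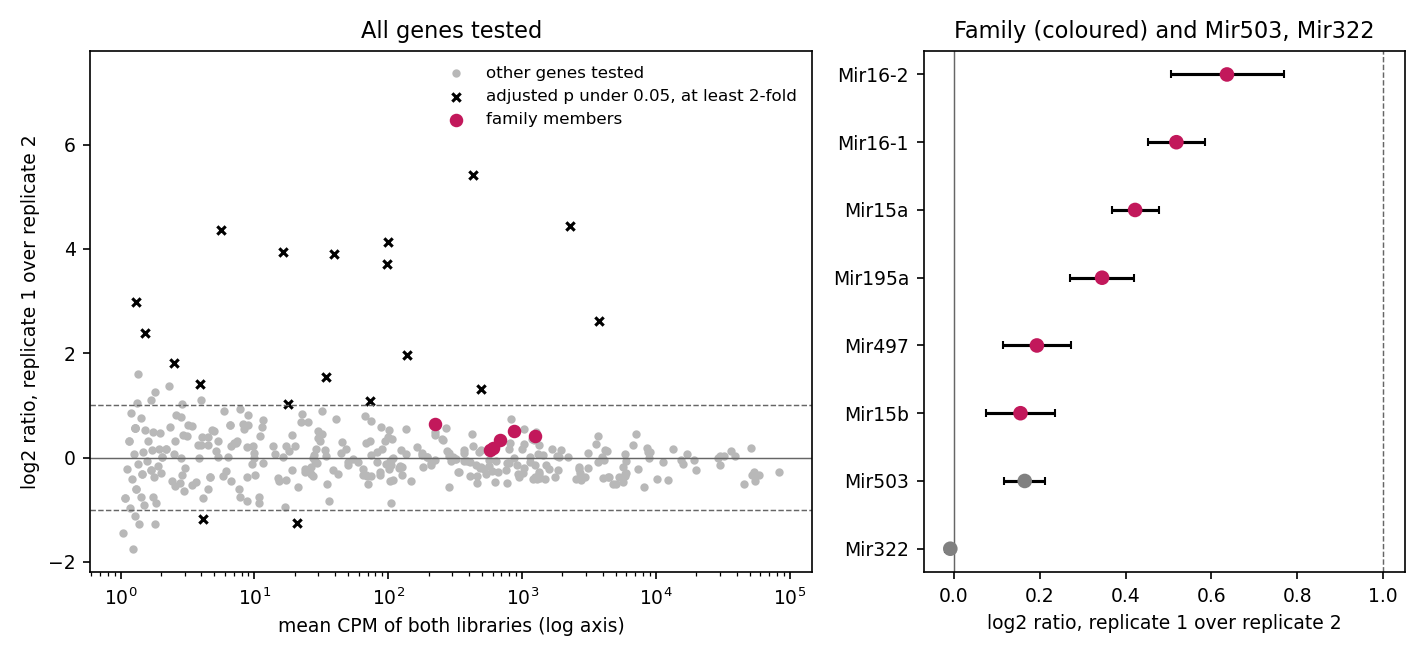
Left, log2 ratio of replicate 1 over replicate 2 after TMM scaling (vertical axis) against mean CPM (log axis) for the 374 genes tested, with family members coloured, called genes as crosses and dashed lines at 2-fold. Right, the same ratio with 95% counting intervals for each member, Mir503 and Mir322, where the members run from 0.16 to 0.64 and Mir322 lies at -0.0086.

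Markers of other cell types differed between the same libraries. All 7 epithelial markers (Mir203, Mir205 and the Mir200 group) were called higher in replicate 1, at 0.569% of counts in replicate 1 and 0.0230% in replicate 2, and the cartilage marker Mir140 held 0.654% and 0.0966%. White blood cell markers, 3 of 4 listed, held 0.0585% in replicate 1 and 0.0400% in replicate 2. All 3 were higher in replicate 1 by CPM, and 0 were called, which needs 2-fold. After TMM scaling, Mir223 had a log2 ratio of 0.46 (adjusted p = 7.31e-21, binomial test). Mir155 had 0.30 (adjusted p = 0.080, same test) and Mir150 -0.0018. The red blood cell markers together held 0.0416% and 0.0299%, but they went opposite ways, and 0 were called at 2-fold. Mir451a had 336 CPM in replicate 1 and 206.1 CPM in replicate 2, a log2 ratio of 0.57 (adjusted p = 1.07e-20, binomial test). Mir144 had 80.7 and 93.3 CPM, a log2 ratio of -0.34 (adjusted p = 0.0030, same test). The endothelial marker Mir126a held 4.08% and 3.66%, but after TMM scaling it was close to even, with a log2 ratio of 0.025 (adjusted p = 1.09e-06, binomial test). No listed marker was at 0 in both libraries. The muscle markers went the other way, with 5 of 5 lower in replicate 1 by CPM, and 0 were called at 2-fold. Among them Mir208b was nearly even by CPM, at 560 in replicate 1 and 567 in replicate 2. After TMM scaling its log2 ratio was -0.15 (adjusted p = 0.00067, binomial test). The part of these differences in the members' ratios was not tested, and in bulk tissue fewer cells of a type and less RNA per cell cannot be told apart.

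Genes with the most similar levels were taken as the 2 non-members with the smallest summed difference in log2 CPM over the 2 libraries, among 306 genes with at least 10 counts in both. For Mir15a these were Mir20a (1534 CPM in replicate 1 and 992 CPM in replicate 2), a gene of the Mir17 cluster, and Mir342 (1425 and 1032 CPM). For Mir16-1 they were Mir148a and Mir196a-2, and for Mir16-2 they were Mir181b-2 and Mir224. Mir15b was nearest to Mir28a (633 and 526 CPM) and then Mir145a, Mir497 to Mir28a and then Mir181d, and Mir195a to Mir181d and then Mir494. With 2 libraries this describes levels only.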

How the data were processed

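The authors deposited raw read counts for each miRNA gene in a separate table per library (build mm10, annotation M4), per the file descriptions deposited beside them. No aligner or counting program is named, so these are not given in the sources used here. The count columns were unnamed and were read from their layout and totals as both strands, own strand and opposite strand. The 4 lines that name no gene stayed out of library sizes. In the own-strand column they held 30.2% (multimapping), 9.66% (unmapped) and 7.56% (no gene) of reads in replicate 1, and 29.9%, 10.1% and 8.44% in replicate 2, with 0 ambiguous.

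Identifiers without version were matched to GENCODE M21, on the same build, for 1894 of 1973 genes. CPM used own-strand totals. Opposite-strand counts stood in the row of Mir497b, and 0.5 was added to each count for log2 ratios. TMM factors (edgeR 4.0.16, R 4.3.3) were 1.05 for replicate 1 and 0.955 for replicate 2, which lowers each log2 ratio by 0.13 against total counts. A gene was called at an adjusted p under 0.05 and at least 2-fold. Exact tests and intervals were from scipy 1.17.1. The test was checked on simulated Poisson counts, the model it assumes, so this did not cover variation between animals. A count of 0 allows up to 3 counts. The labels name separate pups, but with 2 libraries of 1 group a p-value measures counting error only.

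Members and lists were chosen with earlier results of these data known. Named genes were all members, genes sharing the seed with Mir322 and Mir503, listed genes within 10 kb, and the 2 nearest genes by level. Alternatives were DESeq2 1.42.0 size factors, total counts, another added count, both strands, other count minimums, other denominators, and either library alone.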

Additional observations from a re-analysis of the deposited data

How the results depend on the processing

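The family's mean share of 0.420% became 0.219% over all reads and 0.310% without Mir16-1 and Mir16-2. With either library alone it ran from 0.347% to 0.492%, which with 2 libraries is always within 1 SD of the mean. Under 6 settings of scaling, added count, strand or count minimum, the 6 members gave 36 alternative values. In 36 of 36 the members stayed higher in replicate 1 at an adjusted p under 0.05, with log2 ratios from 0.16 to 0.77. The added count does not enter the test, and the count minimums left the members' ratios unchanged, so these settings could hardly differ. DESeq2 size factors and both strands moved the ratios little, for Mir15a from 0.422 to 0.425 and 0.426. The members' counts over both strands differed from the main ones by at most 1, so that setting could hardly differ either. Total counts raised the ratio of all 6 members, for Mir15a to 0.555. Genes called numbered 13 to 22 around 19. With either library alone the log2 ratio within a locus ran from 0.48 to 0.58 for Mir15a over Mir16-1, 1.15 to 1.63 for Mir15b over Mir16-2 and 0.082 to 0.23 for Mir195a over Mir497. The test between libraries cannot be made with either left out. No paired analysis was possible because both libraries belong to the same group. Depth is no limit for the members, with at least 852 counts each.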
